A study of Mus musculus with 12 samples.

Results

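The comparison described here sets mouse embryos labelled p53 knockout (p53 -/-) against embryos labelled p53 wild type (p53 +/+), both collected 3 h after whole-body irradiation of the pregnant mother. It rests on 4 of the 12 RNA-seq libraries of the series, 2 per label, and on the 15535 of 53647 gene IDs that reached 1 TPM in at least 2 of the 12 libraries. TPM is transcript abundance per unit of transcript length, scaled to a fixed sum in each library. Irradiated embryos of both labels were at embryonic day 9.5 and received 30 Gy of X-rays at 5 Gy per minute. The other 8 libraries come from embryos of the same 2 labels and the same stage, collected 1 h after the same dose or left untreated, and they enter the estimate of the spread. The labels do not give the p53 allele, the strain, or whether a library is 1 embryo, a litter or a pool. The p-values below therefore measure the spread between these libraries, which may be technical.

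The transcription factor p53 is stabilised when DNA breaks activate the damage kinases, and it then binds response elements near its target genes and raises their transcription. Its targets include the CDK inhibitor p21 and other brakes on the cell cycle, its own negative regulators, death receptors and mitochondrial killers, and genes of repair and metabolism. Genes of mitosis are lowered indirectly, through p21 and repressor complexes that bind CHR elements in their promoters. Embryos at this stage hold a patterned neural tube, somites, a beating heart and primitive red cells, and neural progenitors at this age are known to be among the most radiation-sensitive cells of the embryo.

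TPM values keep no read depth, so the depth of each library is unknown and no counting error can be given. The 2 libraries of each 3 h group correlated at 0.97 for the label knockout and 0.974 for the label wild type across genes on the log2(TPM + 1) scale. Between 14087 and 14357 genes reached 1 TPM in the 4 libraries. Both 3 h libraries labelled knockout held Xist, at 108 and 96.9 TPM, whereas Xist stood at 135 and 0.01 TPM in those labelled wild type. The second library labelled wild type held the Y-linked transcripts Eif2s3y, Kdm5d, Ddx3y and Uty at 35.03, 18.8, 14.6 and 11.3 TPM, and the other 3 libraries held at most 0.06 TPM of each. The sexes thus differ between the labels at 3 h, and their part in the results was not tested.

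Trp53, the gene that encodes p53, checks the labels. Its level was 242 and 220 TPM in the 3 h libraries labelled knockout, against 93.7 and 68.0 TPM in those labelled wild type. The transcript was thus more abundant in both libraries labelled knockout, with no overlap, which goes against the label. The difference did not pass the threshold (log2 fold change 1.52, SE 0.535, limma, Benjamini-Hochberg adjusted p = 0.118). Transcript levels say nothing of whether protein is made. At 1 h Trp53 stood at 250 and 210 TPM in the libraries labelled knockout and 114 and 66.8 TPM in those labelled wild type. In untreated embryos it crossed the labels, at 265 and 79.1 TPM in the libraries labelled knockout and 114 and 211 TPM in those labelled wild type. Of the p53 targets described below, 42 of 61 were also called higher in the libraries labelled knockout at 3 h, against 5.25% of all genes, which goes against the label as well. The labels may therefore be exchanged, which these files cannot settle, and all directions below are those of the libraries as labelled.

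In untreated embryos the p53 targets Ccng1 and Eda2r, singled out here after their values were seen, were high in the same libraries as Trp53. Ccng1 stood at 18.8 and 12.4 TPM in the untreated libraries labelled knockout and 10.1 and 29.2 TPM in those labelled wild type. Eda2r, a death receptor gene, stood at 1.83 and 0.39 TPM against 0.09 and 2.81 TPM. In all 3 genes the first untreated library labelled knockout and the second labelled wild type were thus the higher ones. A mean label difference near 0 in untreated embryos can therefore hide libraries that differ. Not every p53 target shared this order. Cdkn1a did, at 6.88 and 5.38 TPM against 5.91 and 6.60 TPM. Trp53inp1 did not, at 3.15 and 4.11 TPM against 3.52 and 6.51 TPM. Nor did Gtse1, at 34.0 and 40.0 TPM against 34.2 and 46.0 TPM. How many targets shared it was not counted.

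At 3 h, 1603 of 15535 genes (10.3%) differed between the labels. Of these, 815 (5.25%) were higher in the libraries labelled knockout and 788 (5.07%) were lower. The genes that were higher differed by more. Their median log2 fold change was 1.35, against -0.92 for the genes that were lower, and 192 of them differed at least 4-fold, against 16 of the lower ones. At 8-fold the counts were 71 and 6. The genes called higher held 2.99% and 3.15% of all TPM in the libraries labelled knockout, against 1.01% and 1.02% in those labelled wild type. The genes called lower held 1.45% and 1.55% of all TPM in the libraries labelled knockout and 2.83% and 2.75% in those labelled wild type. In all 1603 genes the 2 libraries of one label lay wholly above or below the 2 of the other. Such separation was found in 2809 of all genes tested in the upward direction (18.1%) and in 5629 in the downward direction (36.2%), so it says little by itself. At an unadjusted p under 0.05, 3734 of the 15535 genes differed in either direction. Counts of list members at that threshold are to be read against this number.

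The balance of directions depended on the scaling. The median log2 fold change of all genes tested was -0.16, and median-of-ratios size factors brought it to -0.00, a shift of 0.16. With these factors 1180 genes were called higher and 552 lower, so 68.1% of calls were higher, against 50.8% with TPM as deposited. Without a filter on low values 60.2% of calls were higher. The medians of gene groups are therefore read against -0.16. When a block for the replicate number was added, limma called 4371 genes (28.1%), 1502 higher (9.67%) and 2869 lower (18.5%), and these included all 1603 genes with the same direction. The count fell to 585, 646, 667 and 737 when the wild type library 1, the knockout library 1, the wild type library 2 or the knockout library 2 at 3 h was left out.

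**Figure D1:**
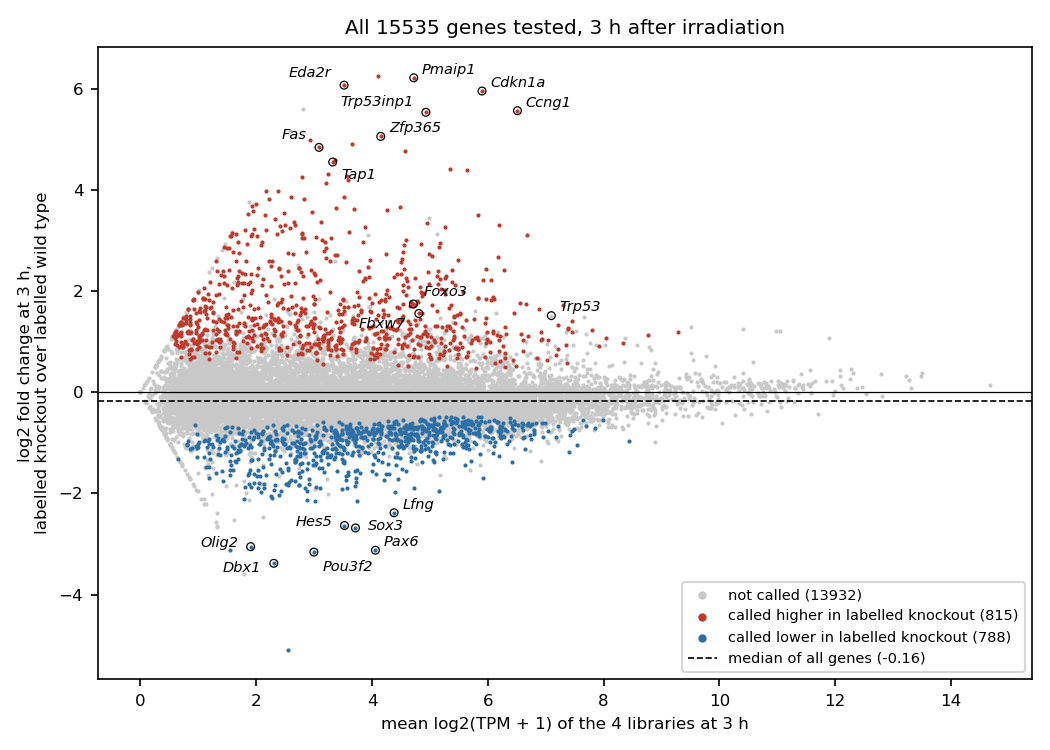
Log2 fold change at 3 h of the libraries labelled knockout over those labelled wild type (vertical axis, positive is higher in labelled knockout) against the mean log2(TPM + 1) of the 4 libraries (horizontal axis), 1 point per gene. The 815 red points reach far above the 788 blue points in distance from 0, and the dashed line marks the median of all genes at -0.16.

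Cdkn1a, Ccng1, Foxo3 and Fbxw7 are the 4 genes of the series title, and all 4 were higher in the libraries labelled knockout. Since the study itself picked them, their direction is not independent support. Cdkn1a (ENSMUSG00000023067), which encodes p21, stood at 499 and 444 TPM in the libraries labelled knockout, against 6.96 and 6.18 TPM in those labelled wild type. Its log2 fold change was 5.96 (SE 0.187, limma adjusted p = 2.58e-06). Ccng1 (ENSMUSG00000020326), which encodes cyclin G1, a partner of the PP2A phosphatase in control of Mdm2, stood at 563 and 703 TPM, against 10.6 and 14.04 TPM. It differed by 5.58 on the log2 scale (SE 0.448, adjusted p = 0.000157). In neither gene did a library come near the other label.

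The other 2 title genes differed by less. Foxo3 (ENSMUSG00000048756), a forkhead factor restrained by AKT, stood at 41.5 and 53.6 TPM in the libraries labelled knockout and at 12.0 and 14.8 TPM in those labelled wild type (log2 fold change 1.75, SE 0.232, limma adjusted p = 0.00215). Fbxw7 (ENSMUSG00000028086), the substrate receptor of an SCF ubiquitin ligase that targets cyclin E and MYC, stood at 46.9 and 47.4 TPM, against 15.4 and 15.3 TPM (1.56, SE 0.184, adjusted p = 0.0012). Again the labels did not overlap in either gene. Ccne1, which encodes cyclin E1, a known substrate of Fbxw7, was lower, at 51.7 and 52.2 TPM in the libraries labelled knockout and 147 and 126 TPM in those labelled wild type (-1.37, adjusted p = 0.00147). These are values of transcripts and not of the cyclin E1 protein, and a link between Fbxw7 and Ccne1 was not tested.

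Across the p53 target lists, 42 of 61 genes tested were higher in the libraries labelled knockout and 0 were lower, against 5.25% and 5.07% of all genes. At an unadjusted p under 0.05, 43 were higher and 3 lower, and with the replicate block 46 were higher and 3 lower. Over these 61 the middle value was a log2 fold change of 2.26, against -0.16 over all genes. The 42 genes ranged from 0.95 to 6.23. The other 19 ranged from -1.0 to 0.73. Without any 1 of the 3 h libraries 37 to 41 genes were called.

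Targets that slow the cell cycle come first. Of 15 tested, 11 were higher, with a median of 2.63. Besides Cdkn1a the largest differences were those of Zfp365, a DNA-damage-induced zinc finger gene that guards against replication stress, and Ptprv, a tyrosine phosphatase gene described in mice as an effector of p53-dependent arrest. Zfp365 stood at 95.8 and 108 TPM in the libraries labelled knockout, against 2.32 and 1.84 TPM in those labelled wild type (log2 fold change 5.07, limma adjusted p = 2.71e-05). Ptprv stood at 49.7 and 35.8 TPM, against 0.77 and 0.04 TPM (4.99, adjusted p = 7.89e-05). Transcripts of both genes were scarce in the libraries labelled wild type and plentiful in those labelled knockout.

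Sesn2, a leucine sensor that restrains mTORC1, and Phlda3, which blocks AKT at the membrane, belong to the same list. Sesn2 stood at 206 and 257 TPM in the libraries labelled knockout and 9.36 and 10.4 TPM in those labelled wild type (4.41), and Phlda3 at 167 and 209 TPM against 7.15 and 8.38 TPM (4.42). Gtse1, a microtubule-bound regulator of G2, stood at 197 and 266 TPM against 22.1 and 22.5 TPM (3.31). Plk2 and Btg2, a polo-like kinase gene and an antiproliferative gene, differed by 2.43 and 3.35. All 5 were separated by label.

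Other members of the same families did not follow. Sesn1 stood at 7.77 and 11.7 TPM in the libraries labelled knockout and 7.91 and 11.2 TPM in those labelled wild type (log2 fold change 0.01, limma adjusted p = 0.994). Sesn3 stood at 9.33 and 13.9 TPM, against 20.7 and 27.2 TPM (-1.0, adjusted p = 0.0711, and 0.00257 with the replicate block). Of the 3 sestrin genes, Sesn2 was therefore the only one called higher. Plk3 had 5.45 and 6.13 TPM in the libraries labelled knockout, against 10.1 and 9.86 TPM, while its relative Plk2 was higher. The difference between family members was not tested.

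A further list of 10 held p53 targets grouped as feedback genes, among them negative regulators of p53. Of these 10, 6 were higher (8 higher and 1 lower with the replicate block). Mdm2, the ubiquitin ligase that degrades p53, stood at 294 and 306 TPM in the libraries labelled knockout, against 33.5 and 33.6 TPM in those labelled wild type (log2 fold change 3.12, limma adjusted p = 2.05e-05). Trp53inp1, which encodes a stress protein that modifies p53 activity and autophagy, stood at 164 and 261 TPM against 2.69 and 4.41 TPM (5.54). Ppm1d, the WIP1 phosphatase that switches the damage signal off, stood at 63.4 and 64.0 TPM against 26.4 and 27.0 TPM (1.22). The feedback genes thus spanned a wide range of size, and Trp53inp1 differed most after Ccng1.

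Mdm4, Rchy1 and Cop1, which encode proteins that bind or ubiquitinate p53, were not called. Mdm4, a relative of Mdm2 without ligase activity of its own, stood at 20.7 and 33.0 TPM in the libraries labelled knockout and 15.7 and 20.1 TPM in those labelled wild type (log2 fold change 0.54, limma adjusted p = 0.472). Cop1 stood at 96.3 and 94.5 TPM, against 123 and 136 TPM (-0.44, adjusted p = 0.105, and 0.012 with the block). Trp53cor1, the long noncoding RNA also named lincRNA-p21 that lies next to Cdkn1a, was at 6.76 and 3.74 TPM against 0.45 and 0.05 TPM (2.30, adjusted p = 0.00204). It was low in all 4 libraries and still separated by label.

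**Figure D2:**
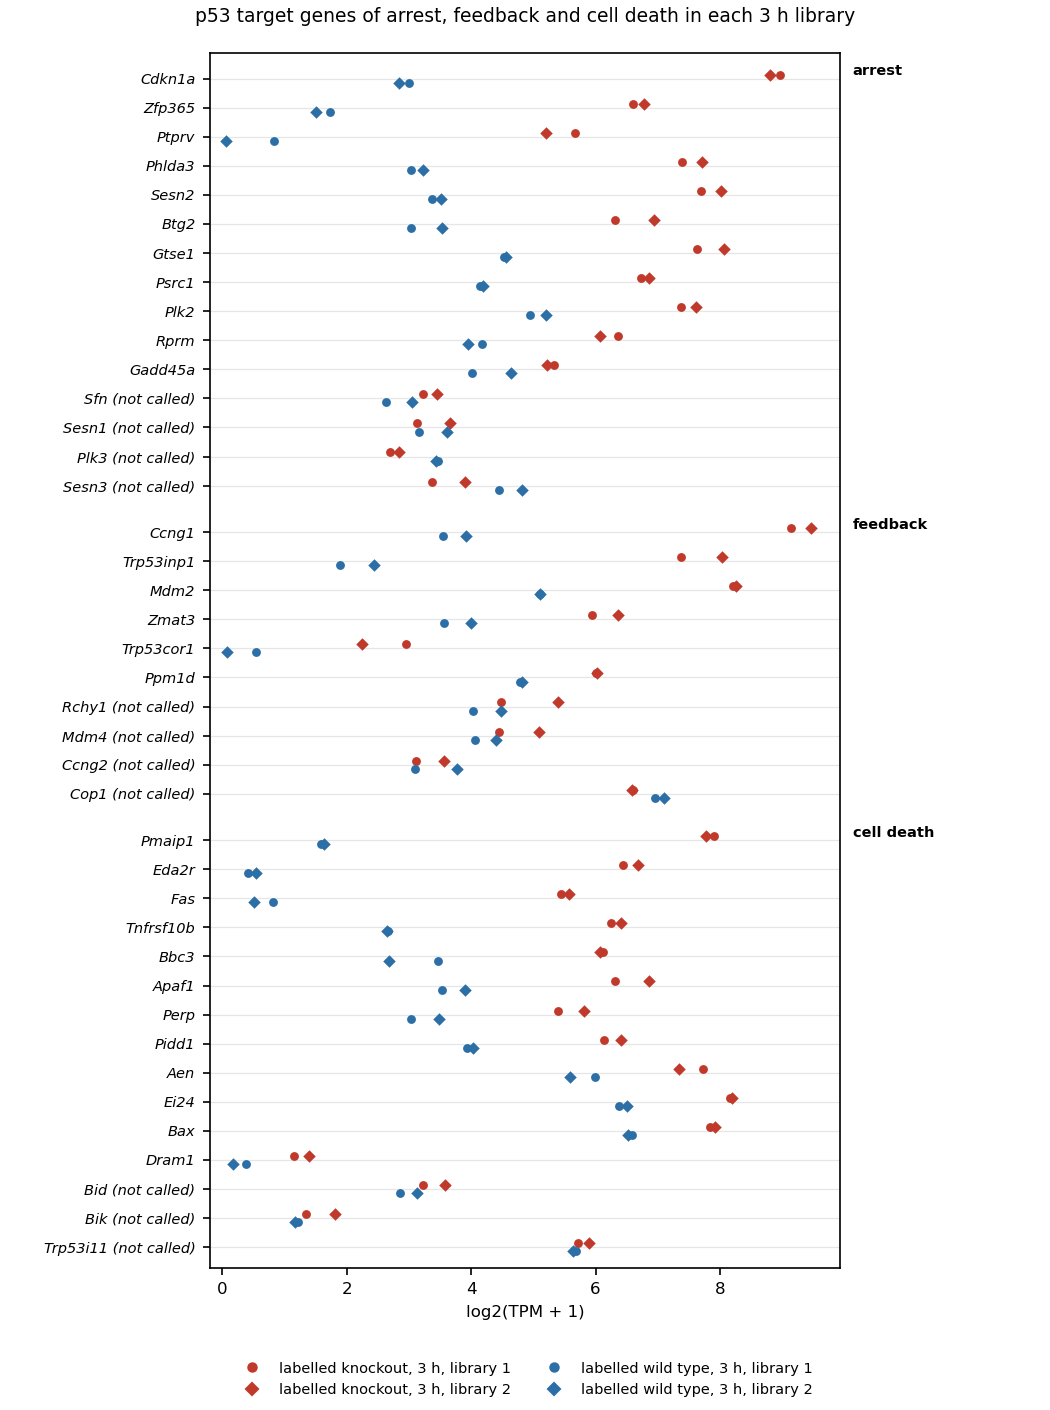
Log2(TPM + 1) of p53 target genes of arrest, feedback and cell death (horizontal axis) in each of the 4 libraries at 3 h, circles for library 1 and diamonds for library 2, labelled knockout in red above labelled wild type in blue. The 2 red points lie right of the 2 blue ones in all 29 genes called, and the 11 genes marked as not called overlap or are less far apart, with red to the left for Sesn3, Plk3 and Cop1.

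Cell death genes were raised among BH3-only proteins, death receptors and the caspase machinery. Of 15 tested, 12 were higher, with a median log2 fold change of 2.29, and no member had a negative value. Pmaip1, which encodes the BH3-only protein NOXA, showed the largest difference of any gene with an ordinary symbol. Its 2 values were 238 and 217 TPM in the libraries labelled knockout, against 2.00 and 2.10 TPM in those labelled wild type (6.23, SE 0.271, limma adjusted p = 1.2e-05). Bbc3, which encodes the BH3-only protein PUMA, stood at 68.7 and 66.2 TPM against 10.1 and 5.42 TPM (3.02). The BH3-only genes Bid and Bik were not called, at 0.40 and 0.38.

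Death receptors formed a second step. Eda2r, a receptor of the TNF receptor family, stood at 85.7 and 101 TPM in the libraries labelled knockout, against 0.33 and 0.46 TPM in those labelled wild type (log2 fold change 6.08). Fas stood at 42.7 and 46.5 TPM against 0.76 and 0.42 TPM (4.85), and Tnfrsf10b, the mouse TRAIL receptor gene, at 74.7 and 83.7 TPM against 5.35 and 5.24 TPM (3.67). All 3 receptors were separated by label, and 2 of them stood below 1 TPM in the libraries labelled wild type. Downstream, Apaf1, the core of the apoptosome, stood at 78.3 and 115 TPM against 10.5 and 13.97 TPM (2.87). Pidd1, the core of the PIDDosome that activates caspase-2, was at 69.5 and 84.3 TPM against 14.3 and 15.3 TPM (2.29), and Bax, the pore former of the outer mitochondrial membrane, at 229 and 242 TPM against 95.1 and 90.8 TPM (1.33). Bax was thus abundant under both labels, and its difference was among the smaller ones.

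Genes of repair, metabolism and other functions held 13 of 21 calls, all higher, with a median log2 fold change of 2.02. Tap1, the peptide transporter of MHC class I presentation, stood at 44.4 and 50.9 TPM in the libraries labelled knockout, against 1.29 and 0.85 TPM in those labelled wild type (4.56). Ercc5, the 3' endonuclease of nucleotide excision repair, stood at 81.7 and 84.3 TPM against 18.5 and 14.7 TPM (2.26), and Polk, a translesion polymerase, at 38.3 and 40.3 TPM against 4.84 and 3.45 TPM (2.98). Ak1, an adenylate kinase, stood at 102 and 90.3 TPM against 18.1 and 16.2 TPM (2.42), and Cpt1c, a brain-type carnitine palmitoyltransferase, differed by 3.28. The raised genes therefore include both repair enzymes and enzymes of energy metabolism.

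The excision repair factors Xpc and Ddb2, known p53 targets in human cells, were not raised. Xpc stood at 14.3 and 12.3 TPM in the libraries labelled knockout and 18.2 and 15.9 TPM in those labelled wild type (log2 fold change -0.34, limma adjusted p = 0.289), and Ddb2 at 4.43 and 4.20 TPM against 4.44 and 4.94 TPM (-0.10, adjusted p = 0.794). Xpc was called lower with the replicate block (adjusted p = 0.0449). Tigar, an inhibitor of glycolysis, differed by -0.31 and Rrm2b, the p53-inducible subunit of ribonucleotide reductase, by 0.57, neither past the threshold. Missing the threshold does not show that these genes are alike under the 2 labels.

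Outside the p53 lists, 3 further genes were among the 12 with the largest rise. Ddit4l, an inhibitor of mTOR signalling, stood at 61.9 and 75.5 TPM in the libraries labelled knockout, against 1.20 and 1.42 TPM in those labelled wild type (log2 fold change 4.91). Dcxr, an enzyme of xylulose metabolism, stood at 110 and 139 TPM against 2.41 and 5.05 TPM (4.78), and Prrg4, a transmembrane Gla protein gene, at 40.9 and 60.5 TPM against 0.90 and 1.29 TPM (4.61). Ddit4, the relative of Ddit4l also called REDD1, which belongs to the list of the integrated stress response, stood at 182 and 199 TPM against 15.4 and 16.2 TPM (3.51). It was the only member of 14 tested of that list to be called (2 higher and 3 lower with the replicate block). A gene model without a functional name, 1700007K13Rik, chosen here after its value was seen, had the largest difference of all, at 166 and 134 TPM against 1.02 and 0.88 TPM (6.27, adjusted p = 2.58e-06). Among the genes called higher 6.75% had such clone-like names, against 14.2% of all genes tested.

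Trp73, which encodes the p53 relative p73, was higher at a low level, with 3.65 and 2.28 TPM in the libraries labelled knockout and 0.27 and 0.13 TPM in those labelled wild type (log2 fold change 1.71, limma adjusted p = 0.00264). Trp63, the third family member, stood at 3.95 and 4.21 TPM against 4.96 and 5.96 TPM (-0.34, adjusted p = 0.236). Of the genes that neighbour Trp53 on its chromosome, 1 of 12 tested was called, near the 10.3% of all genes. With the replicate block 2 were higher and 3 lower, against 9.67% and 18.5% of all genes. The 1 called without the block was Wrap53, an antisense neighbour that overlaps Trp53. It stood at 44.2 and 55.0 TPM against 25.6 and 29.9 TPM (0.81, limma adjusted p = 0.0376). Its call was lost without any 1 of the 3 h libraries. Reads of the overlapping pair cannot be told apart without strand, and the strand setting is not given in the sources used here.

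The promoters of raised genes were searched for the p53 response element, to show what sequence stands before them. A match was a full element of 20 bases without a spacer, the p53 consensus, with both CNNG cores intact and at most 2 mismatches, in the window from 250 bases before to 50 after an annotated start. It was found in 106 of 27025 genes in the RefSeq table (0.392%). The lines show the elements, in capitals, with their flanks, read 5′ to 3′ on the strand of the gene (RefSeq, GRCm38.p6).
Cdkn1a, chr17:29090908-29090967, plus strand, 1 mismatch: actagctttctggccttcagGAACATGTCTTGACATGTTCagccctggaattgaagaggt
Ccng1, chr11:40755442-40755501, minus strand, 1 mismatch: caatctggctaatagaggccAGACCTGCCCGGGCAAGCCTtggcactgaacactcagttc
Zfp365, chr10:67912686-67912745, minus strand, 2 mismatches: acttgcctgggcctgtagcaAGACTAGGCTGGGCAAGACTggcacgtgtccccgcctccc
Trp73, chr4:154097200-154097259, minus strand, 2 mismatches: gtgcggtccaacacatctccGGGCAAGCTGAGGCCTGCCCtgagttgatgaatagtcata

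These elements begin 51 bases before the start in Cdkn1a, 195 in Ccng1, 63 in Zfp365 and 66 in Trp73. The Cdkn1a window belongs to one of its annotated starts. The sequences are shown because they stand before genes of which 3 are among the 12 with the largest rise. Of the 10873 tested genes with a promoter entry, 51 held an element in the window and 10822 did not. Of the 51 genes, 14 (27.5%) were called higher and 0 lower, with a median log2 fold change of 0.18. Of the 10822 genes, 608 (5.62%) were called higher and 580 (5.36%) lower, with a median of -0.17. Of the p53 target genes called higher, 35 had an entry and 4 of these (11.4%) held the element, so most of them showed no match in this short window. A match is a run of letters and not a measured site.

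A minority of the genes of G2, mitosis and G1/S passed the test. Of 42 genes of G2 and mitosis, 8 were called lower and 0 higher, against 5.07% lower among all genes. At an unadjusted p under 0.05, 15 of the 42 were lower and 2 higher, against 3734 of 15535 genes in either direction. The median log2 fold change of the 42 was -0.39, against -0.16 for all genes. Racgap1, a component of the central spindle, stood at 32.2 and 34.4 TPM in the libraries labelled knockout, against 68.8 and 69.5 TPM in those labelled wild type (-1.03, SE 0.199, limma adjusted p = 0.0136). Plk1, the kinase that drives mitotic entry, stood at 36.2 and 40.8 TPM against 56.7 and 62.3 TPM (-0.62, adjusted p = 0.0324), and Cdca8, a subunit of the chromosomal passenger complex, at 77.8 and 83.9 TPM against 123 and 130 TPM (-0.64, adjusted p = 0.0189). With the replicate block 21 genes were lower and 3 higher, against 18.5% and 9.67% of all genes. With size factors the calls fell to 4, and without any 1 of the 3 h libraries 0 were called.

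The mitotic genes did not move as one. Cdc20, the activator of the anaphase-promoting complex, stood at 92.1 and 133 TPM in the libraries labelled knockout, against 43.5 and 60.8 TPM in those labelled wild type (log2 fold change 1.09, limma adjusted p = 0.102, and 0.00097 with the block). Its labels did not overlap, and it was higher where Racgap1 was lower. The cyclin genes Ccnb1 and Ccnb2 overlapped between the labels, at 39.0 and 80.2 TPM against 49.0 and 88.6 TPM and at 55.2 and 63.9 TPM against 51.6 and 59.8 TPM.

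The CHR element TTTGAA, searched on both strands, that is, also as TTCAAA, was found in the windows of 24 of 36 G2 and mitosis genes with an entry (66.7%) and of 20.2% of all genes in the table. The windows of 2 called genes are shown, the CHR in capitals, on the strand of the gene (RefSeq, GRCm38.p6).
Prc1, chr7:80294426-80294471, plus strand: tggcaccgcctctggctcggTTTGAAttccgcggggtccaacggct
Kif2c, chr4:117178850-117178895, minus strand: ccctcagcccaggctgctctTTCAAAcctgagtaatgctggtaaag
Prc1, which bundles microtubules of the spindle midzone, stood at 25.6 and 30.3 TPM in the libraries labelled knockout, against 43.3 and 47.2 TPM in those labelled wild type (log2 fold change -0.68). Kif2c, a microtubule-depolymerising kinesin, stood at 26.0 and 24.4 TPM against 40.8 and 41.9 TPM (-0.69). Over all tested genes the motif made little difference to the calls: 5.68% of the 1531 genes with it were lower and 5.28% of the 9342 genes without it.

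Few genes of the G1/S transition and of replication passed the test. Over the 30 tested the median log2 fold change was -0.40, against -0.16 for all genes. With the replicate block 14 were lower, against 18.5% of all genes. Without the block 3 were lower and 0 higher, against 5.07% and 5.25% of all genes (12 lower and 0 higher at an unadjusted p under 0.05). Fewer of the 30 were called when any 1 of the 3 h libraries was left out. The 3 were Ccne1, given above, Ccne2, the second E-type cyclin, and Slbp, the histone mRNA binding protein. Ccne2 stood at 42.2 and 41.1 TPM in the libraries labelled knockout against 91.3 and 64.8 TPM in those labelled wild type (-0.87), and Slbp at 130 and 139 TPM against 233 and 222 TPM (-0.76). Ccne2 lost its call with size factors or with quantile normalization and Slbp with size factors. Tyms and Rrm2, enzymes of nucleotide synthesis, overlapped between the labels, with Rrm2 at 350 and 428 TPM against 351 and 408 TPM. Among the D-type cyclins and their kinases 0 of 6 were called (3 lower at an unadjusted p under 0.05, 3 lower with the block). Over all genes 3734 of 15535 were under that p in either direction, and 18.5% were lower with the block. Ccnd1 stood at 93.1 and 109 TPM against 157 and 165 TPM (-0.67, limma adjusted p = 0.0731).

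Of 6 inhibitors of cyclin-dependent kinases, 2 were higher and 1 lower (3 and 1 with the block). Cdkn2b, which encodes p15, was higher with Cdkn1a, at 4.86 and 4.02 TPM in the libraries labelled knockout against 0.19 and 0.26 TPM in those labelled wild type (log2 fold change 2.15, limma adjusted p = 0.000245). Cdkn1b, which encodes p27, was lower, at 9.48 and 9.89 TPM against 22.7 and 25.7 TPM (-1.23, adjusted p = 0.00126). In the FOXO list of 11 genes, Foxo3 and Foxo1 were higher and Cited2 was lower (2 higher and 2 lower with the block). Foxo1, the related forkhead factor, stood at 11.7 and 12.5 TPM against 5.92 and 6.67 TPM (0.85, adjusted p = 0.0138) and lost its call without any 1 of the 3 h libraries. Among 28 genes of double-strand break signalling and repair, 1 was higher and 1 lower, and with the block 1 was higher and 6 lower. These counts are near the shares among all genes, 5.25% higher and 5.07% lower, or 9.67% and 18.5% with the block. With 1 of the 3 h libraries left out 1 call was made. The higher one was Chek2, the checkpoint kinase gene, at 43.1 and 42.9 TPM against 19.3 and 18 TPM (1.17, adjusted p = 0.00175).

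Immediate early genes, which respond to growth factor and stress signalling within minutes, had calls in 1 direction. Of 21 tested, 10 were higher and 0 lower (14 and 1 at an unadjusted p under 0.05, and likewise 14 and 1 with the block), with a median log2 fold change of 0.86 against -0.16 for all genes. The shares over all genes were 5.25% higher and 5.07% lower, or 9.67% and 18.5% with the block. Egr1, a zinc finger factor, stood at 49.7 and 36.6 TPM in the libraries labelled knockout, against 2.05 and 1.96 TPM in those labelled wild type (3.86, limma adjusted p = 5.86e-05). Fos and Fosl1, subunits of AP-1, stood at 18.6 and 16.6 TPM against 0.97 and 0.92 TPM (3.26) and at 10.4 and 9.54 TPM against 0.29 and 0.28 TPM (3.09). Atf3, a stress-induced bZIP factor, stood at 31.4 and 30.5 TPM against 6.46 and 5.16 TPM (2.24). These 4 genes were separated by label with room to spare.

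Ier2 and Myc did not follow. Ier2 stood at 85.5 and 79.1 TPM in the libraries labelled knockout and 83.6 and 70.3 TPM in those labelled wild type, with overlapping labels. Myc, the growth-promoting factor, stood at 28.4 and 19.9 TPM, against 74.2 and 49.0 TPM (log2 fold change -1.31, limma adjusted p = 0.0741). With the replicate block Myc was lower (adjusted p = 0.000414).

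Stress pathways outside p53 had 1 or 2 called genes per list. Over all genes 5.25% were called higher and 5.07% lower (9.67% and 18.5% with the replicate block), so counts this small say little about a list. Hmox1, the haem oxygenase gene of the NRF2 list, stood at 68.1 and 80.0 TPM in the libraries labelled knockout against 20.5 and 22.8 TPM in those labelled wild type (log2 fold change 1.73, limma adjusted p = 0.00065), 1 of 8 tested (2 with the block). Hspa1a, an inducible HSP70 gene, stood at 7.53 and 6.24 TPM against 0.57 and 0.54 TPM (2.34, adjusted p = 0.000237). It was 1 of 2 called among 10 heat shock genes (3 higher and 1 lower with the block). The other was its near-identical copy Hspa1b, so the values of both are uncertain. Icam1, an adhesion molecule gene of the NF-kappaB list, stood at 12.5 and 16.1 TPM against 2.66 and 3.53 TPM (1.90), and 2 of 10 tested on that list were called. Epo, the erythropoietin gene of the hypoxia list, went the other way, at 0.75 and 1.56 TPM against 6.77 and 6.93 TPM (-1.89, adjusted p = 0.00348), 1 of 12 tested (2 with the block). Tap1 and Psmb9 were called among 9 MHC class I genes (2 higher and 1 lower with the block).

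Among genes with ordinary symbols the largest decreases included many genes of the neural tube, a description without a test of enrichment. The 6 genes called at least 8-fold lower also included the gene models Gm25776 and Gm27038, chosen here after their values were seen. Both were at 0 in the libraries labelled knockout, against 27.3 and 40.9 TPM and against 7.31 and 7.98 TPM in those labelled wild type. The 12 named genes with the largest decrease were Dbx1, Pou3f2, Pax6, Olig2, Sox3, Hes5, Lfng, Fgf15, Lrrn1, Nkx6-1, Neurod4 and Pou3f3. Dbx1, a homeobox factor of intermediate progenitors in the neural tube, stood at 0.33 and 0.76 TPM in the libraries labelled knockout, against 16.8 and 13.3 TPM in those labelled wild type (log2 fold change -3.38, SE 0.253, limma adjusted p = 0.000108). Pou3f2, a POU factor of neural progenitors, stood at 1.68 and 1.66 TPM against 25.1 and 20.9 TPM (-3.16), and Pax6, a paired-box factor of the ventral neural tube, forebrain and eye, at 5.37 and 4.01 TPM against 62.3 and 37.2 TPM (-3.12). In each gene the labels stood far apart.

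Among 11 neural progenitor markers, 8 were lower and 0 higher (8 and 0 also at an unadjusted p under 0.05), with a median log2 fold change of -1.56 against -0.16 for all genes. The share called lower over all genes was 5.07%. The SOXB1 factors, which keep neural progenitors undifferentiated, were all lower. Sox3 stood at 4.03 and 4.34 TPM in the libraries labelled knockout against 39.7 and 26.2 TPM in those labelled wild type (-2.68), Sox2 at 13.6 and 21.6 TPM against 66.5 and 71.6 TPM (-1.95), and Sox1 at 6.70 and 6.42 TPM against 24.4 and 18.6 TPM (-1.56). The intermediate filament genes of the same list differed less. Nes stood at 86.1 and 75.2 TPM against 117 and 89.8 TPM (-0.34, limma adjusted p = 0.309), and Vim, which many mesenchymal cells also express, at 393 and 536 TPM against 393 and 454 TPM (0.12, adjusted p = 0.86). In bulk embryos, fewer cells of a type and less RNA per cell cannot be told apart. Without any 1 of the 3 h libraries fewer of the 11 markers were called.

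Dorsoventral patterning factors of the neural tube, a list chosen after values were seen, had 12 of 23 genes lower and 1 higher, with a median log2 fold change of -0.79. The shares over all genes were 5.07% lower and 5.25% higher. Fewer of the 23 factors were called without any 1 of the 3 h libraries, and 9 were called with quantile normalization. Olig2, a bHLH factor of motor neuron progenitors, stood at 0.32 and 0.28 TPM in the libraries labelled knockout, against 11.0 and 8.68 TPM in those labelled wild type (-3.05, limma adjusted p = 3.46e-05). Nkx6-1, a homeobox factor of the ventral tube, stood at 2.62 and 2.46 TPM against 17.0 and 12.2 TPM (-2.12). Dorsal and ventral factors were both among the lower genes. Pax3, a dorsal paired-box factor, stood at 6.27 and 5.73 TPM against 18.6 and 15.8 TPM (-1.38), and Olig3, of the dorsal progenitors, at 2.77 and 1.93 TPM against 10.6 and 9.47 TPM (-1.73).

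The exception in that list was Nkx2-9, a homeobox gene of the ventral tube next to the floor plate, at 34.1 and 34.6 TPM in the libraries labelled knockout against 12.2 and 12.1 TPM in those labelled wild type (log2 fold change 1.43, limma adjusted p = 0.000794). Shh, the signal of the floor plate and notochord, stood at 11.3 and 9.76 TPM against 14.2 and 13.1 TPM and did not pass (-0.35, adjusted p = 0.176). Of 8 hedgehog pathway genes, 3 were lower (7 with the block, and 0 to 2 without any 1 of the 3 h libraries). Ptch1, the hedgehog receptor and a direct target of the pathway, stood at 20.6 and 19.4 TPM against 61.3 and 46.5 TPM (-1.37, adjusted p = 0.00738). Gli1, the target that reads out pathway activity, stood at 11.9 and 13.3 TPM against 27.5 and 17.96 TPM (-0.78, adjusted p = 0.0442), and its call was lost in 18 of 24 alternatives. Of 11 Wnt pathway genes 2 were lower (5 with the block), and of 10 FGF pathway genes 1 was lower (4 lower and 1 higher with the block). Over all genes 5.07% were called lower and 5.25% higher, or 18.5% and 9.67% with the block. Calls of 1 or 2 genes therefore say little about a pathway.

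Regional factors of the brain, also listed after values were seen, had 14 of 25 genes lower and 0 higher (21 lower and 0 higher at an unadjusted p under 0.05), and 22 lower with the block. Their median log2 fold change was -1.27. Among all genes 5.07% were called lower, or 18.5% with the block. Six3, a forebrain and eye factor, stood at 1.56 and 1.03 TPM in the libraries labelled knockout, against 7.84 and 7.05 TPM in those labelled wild type (-1.89). Otx2, of the forebrain and midbrain, stood at 15.7 and 16.5 TPM against 42.3 and 39.7 TPM (-1.29), and Gbx2, of the anterior hindbrain, at 3.54 and 3.64 TPM against 10.5 and 11.6 TPM (-1.39). Lower genes thus included forebrain, midbrain and hindbrain factors. Wnt1, the signal of the midbrain and dorsal midline, stood at 1.31 and 1.76 TPM against 10.4 and 7.15 TPM (-1.93), and Fgf15, a neural FGF, at 1.88 and 4.13 TPM against 15.4 and 16.7 TPM (-2.15). Egr2, a factor of hindbrain segments, was not called, at 0.58.

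Of the Notch pathway genes Hes5, Lfng and Dll3 were lower. The shares over all genes were 5.07% lower and 5.25% higher, or 18.5% and 9.67% with the block. Hes5, a target of Notch in neural progenitors, stood at 2.53 and 5.05 TPM in the libraries labelled knockout, against 27.4 and 28.0 TPM in those labelled wild type (log2 fold change -2.64, limma adjusted p = 0.00619). Lfng, the glycosyltransferase that tunes Notch, stood at 5.58 and 11.7 TPM against 41.8 and 51.9 TPM (-2.38). Hes1, a target in many tissues, stood at 31.5 and 37.8 TPM against 40.1 and 40.7 TPM (-0.22, adjusted p = 0.694). Notch1, which encodes the receptor, leaned the other way, at 32.3 and 53.7 TPM against 17.96 and 22.8 TPM (1.01, adjusted p = 0.08, and 0.00259 with the block). Of 10 genes of the pathway, 3 were lower and 0 higher (4 and 2 at an unadjusted p under 0.05, and likewise with the block), and 1 or 2 were called without any 1 of the 3 h libraries.

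Genes of early neurons were called in the lower direction. Of 13 tested, 5 were lower and 0 higher (9 and 1 at an unadjusted p under 0.05), and 11 were lower with the block. Between 2 and 5 were called when 1 of the 3 h libraries was left out. The median log2 fold change was -1.22. Among all genes 5.07% were called lower and 5.25% higher, and 18.5% were lower with the block. Neurog2, the proneural factor that starts neuron formation, stood at 1.17 and 1.57 TPM in the libraries labelled knockout, against 9.70 and 7.92 TPM in those labelled wild type (-2.05, limma adjusted p = 0.000157), and Neurod4 at 0.67 and 0.67 TPM against 5.64 and 6.89 TPM (-2.12). Tubb3, the neuronal tubulin gene, stood at 31.4 and 27.0 TPM against 64.3 and 54.0 TPM without passing (-0.99, adjusted p = 0.0539). Neurod1 was the member with a positive value, at 14.1 and 11.0 TPM against 6.20 and 5.40 TPM (0.99, adjusted p = 0.107).

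**Figure D3:**
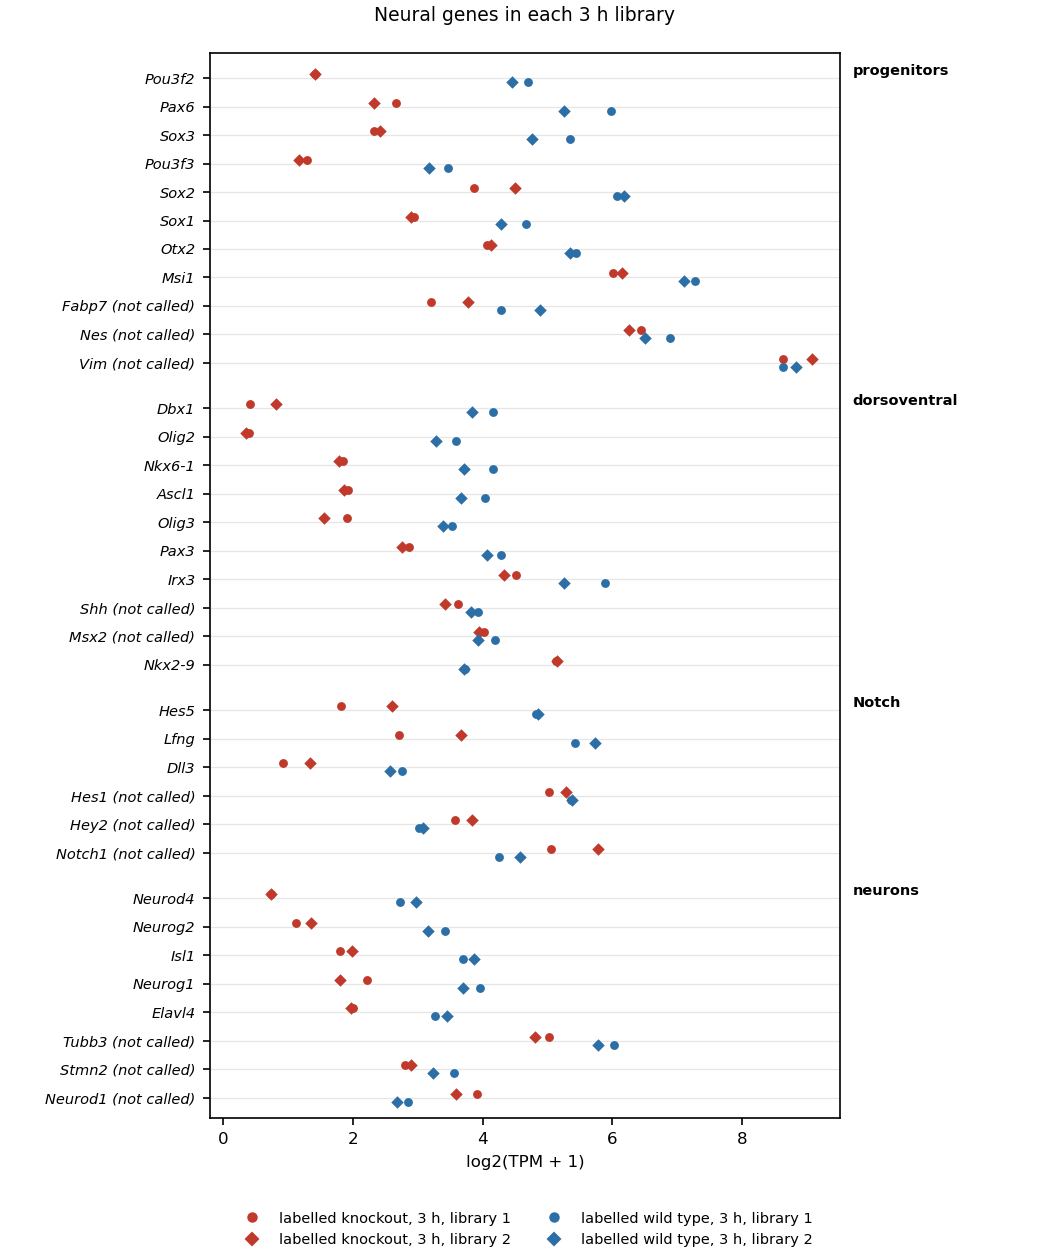
Log2(TPM + 1) of neural progenitor markers, dorsoventral factors, Notch genes and neuron markers (horizontal axis) in each of the 4 libraries at 3 h, circles for library 1 and diamonds for library 2, labelled knockout in red above labelled wild type in blue. Red lies left of blue in every gene called except Nkx2-9, and Vim, Msx2, Hey2, Notch1, Hes1 and Neurod1 show overlap, a small gap or the reverse order.

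Hox genes set position along the body axis. Over all clustered Hox genes, a list chosen after values were seen, 17 of 33 were lower and 1 higher, with a median log2 fold change of -0.92. Among all genes tested 5.07% were called lower and 5.25% higher. Hoxa2, a hindbrain and arch gene, stood at 4.03 and 5.65 TPM in the libraries labelled knockout, against 19.7 and 21.96 TPM in those labelled wild type (-1.91, limma adjusted p = 0.000317). Hoxb8 stood at 6.01 and 5.59 TPM against 21.8 and 18.6 TPM (-1.64), and Hoxb9, of the thoracic level, at 9.64 and 12.7 TPM against 34.9 and 42.8 TPM (-1.72). Of 12 posterior Hox genes 3 were lower, but that list already differed in untreated embryos, with a median of -1.12 there and -0.51 at 3 h. Without any 1 of the 3 h libraries fewer of the clustered Hox genes were called.

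Other embryonic tissues had calls as well. Over all genes 5.07% were called lower and 5.25% higher (18.5% and 9.67% with the replicate block). Of 10 neural crest markers 2 were lower (6 with the block), led by Tfap2b, an AP-2 factor, at 4.81 and 4.20 TPM in the libraries labelled knockout against 13.7 and 12.0 TPM in those labelled wild type (log2 fold change -1.33, limma adjusted p = 0.00125). Of 7 somite markers, 4 were lower and 1 higher. Without any 1 of the 3 h libraries fewer of these 7 were called. Pax1, of the sclerotome, stood at 6.03 and 5.25 TPM against 14.5 and 15.6 TPM (-1.28), while Mesp2, a segmentation factor of the presomitic mesoderm, stood at 4.55 and 3.52 TPM against 0.63 and 0.04 TPM (1.94, adjusted p = 0.00215). Of 9 gut endoderm markers 3 were lower (3 lower and 1 higher with the block). The 3 included Foxa1, a pioneer factor, at 2.15 and 3.01 TPM against 6.66 and 6.29 TPM (-1.07), whereas Epcam, Cdh1 and Cldn6 were not called. Without any 1 of the 3 h libraries fewer of these 9 endoderm markers were called. Of 8 limb and lateral mesoderm markers 2 were lower (4 lower and 1 higher with the block). Prrx1, of limb mesenchyme, stood at 19.4 and 19.1 TPM against 35.2 and 38.5 TPM (-0.90).

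Cardiac muscle markers had calls in the higher direction. Of 11 cardiac muscle markers, 6 were higher and 0 lower (8 and 0 at an unadjusted p under 0.05, 10 and 0 with the block), and all 11 lay between 0.81 and 1.25 on the log2 scale. Among all genes 5.25% were called higher and 5.07% lower, or 9.67% and 18.5% with the block. Myl7, the atrial myosin light chain, stood at 694 and 604 TPM in the libraries labelled knockout, against 305 and 285 TPM in those labelled wild type (1.13, SE 0.17, limma adjusted p = 0.00396). Their summed TPM was 3553 and 3155 against 1656 and 1433. Myh6 and Myh7, the cardiac myosin heavy chains, overlapped between the labels. Without any 1 of the 3 h libraries fewer of the 11 cardiac markers were called.

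Of 11 endothelial markers 3 were higher (9 with the block, 8 with size factors, and 1 without any 1 of the 3 h libraries), with a median log2 fold change of 0.67. Among all genes 5.25% were called higher, or 9.67% with the block. Eng, the TGF-beta co-receptor of endothelium, stood at 48.6 and 56.1 TPM in the libraries labelled knockout, against 25.5 and 23.2 TPM in those labelled wild type (1.07, limma adjusted p = 0.00357). At an unadjusted p under 0.05, 3734 of all 15535 genes differed in either direction. Primitive erythroid markers had a median of 1.00 with 0 of 11 called (4 higher at an unadjusted p under 0.05, 4 higher with the block). Their summed TPM was 14400 and 12510 in the libraries labelled knockout against 4869 and 7264 in those labelled wild type. Visceral endoderm markers, of the yolk sac that surrounds the embryo, had a median of 1.28 with 0 of 10 called (1 at an unadjusted p under 0.05, 0 with the block), and summed TPM of 204 and 516 against 110 and 160. These sums moved in the opposite direction to those of the neural progenitor list, at 600 and 750 TPM against 953 and 931 TPM, and of the neuron list, at 70.9 and 66.8 TPM against 157 and 147 TPM. A different mix of tissues in the libraries was not tested as a part of the neural differences.

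Markers of other cells were scarce. White blood cell markers had 5 of 9 genes tested and summed TPM of 15.0 and 15.4 in the libraries labelled knockout against 7.44 and 8.64 in those labelled wild type, with Laptm5 called. Of 8 trophoblast markers 5 were tested, with summed TPM of 27.5 and 34.2 against 43.8 and 32.1, and 2 stood at 0 in all 4 libraries. Of 5 decidua markers 2 were tested and 2 stood at 0 in all 4 libraries. The called one, Cryab, is a chaperone gene that heart and muscle also express. Mitochondrial transcripts and cytosolic ribosomal proteins had 0 calls of 15 and 82 tested (0 and 1 at an unadjusted p under 0.05; with the block 0 mitochondrial calls, and 1 ribosomal gene higher and 1 lower), with medians of 0.27 and 0.14. Their summed TPM was 85460 and 80910 against 67040 and 76320, and 116300 and 123700 against 106000 and 110800.

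**Figure D4:**
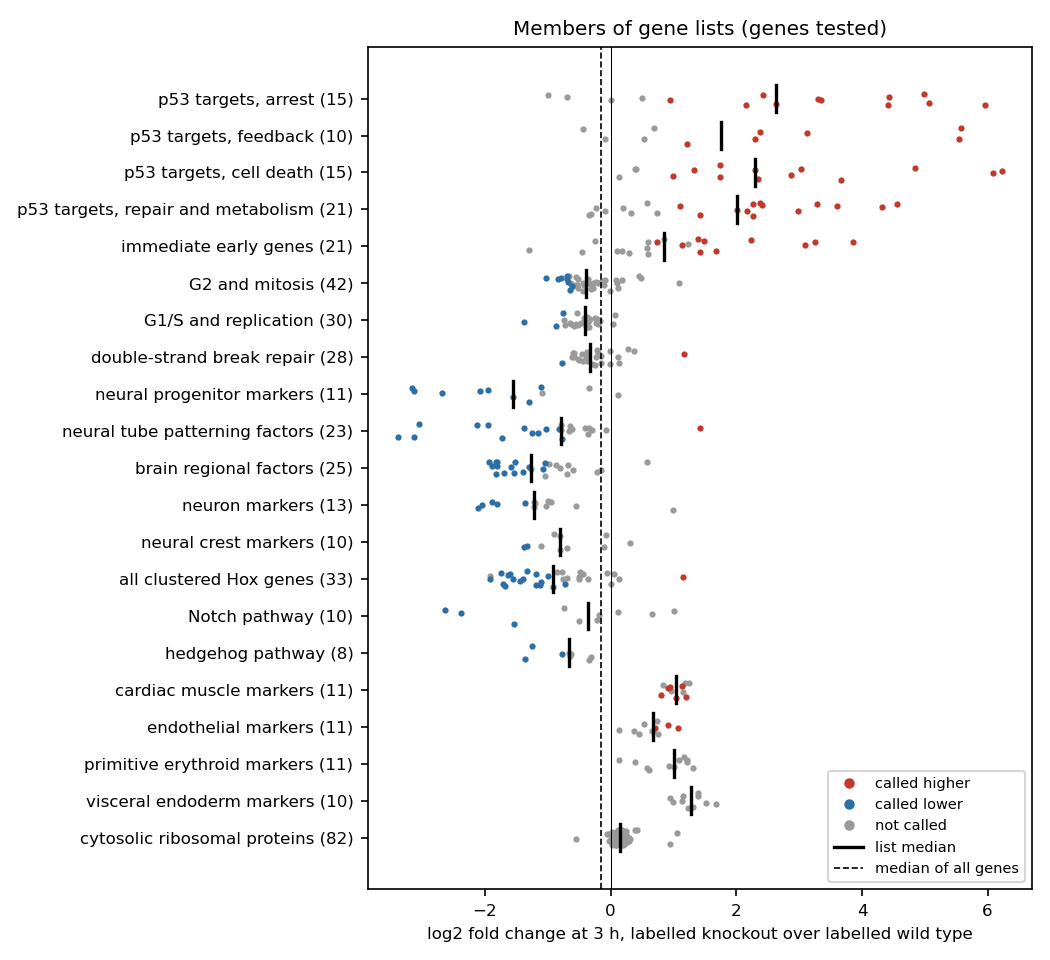
Log2 fold change at 3 h of the libraries labelled knockout over those labelled wild type (horizontal axis) for the members of 21 gene lists, 1 point per gene tested, with the number tested in brackets. Black bars are list medians and the dashed line is the median of all genes at -0.16. The 4 p53 target lists lie to the right with medians from 1.76 to 2.63, and the neural and Hox lists lie to the left with medians from -0.79 to -1.56.

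The same labels were compared at the other times. The mean values at each time come from that time's own 4 libraries, but the estimate of the spread is shared over all 12, so the comparisons are not independent. At 1 h, 6 genes (0.0386%) were higher in the libraries labelled knockout and 0 lower (210 genes at an unadjusted p under 0.05, 12 higher with the block, 0.0772%). All 6 were also higher at 3 h. They were Cdkn1a, Sesn2, Inka2, Pmaip1, Tnfrsf10b and the gene model Gm37795, with log2 fold changes of 3.28, 2.73, 2.38, 2.36, 1.72 and 1.79. In untreated embryos 3 genes (0.0193%) were lower and 0 higher (186 at an unadjusted p under 0.05, 2 lower with the block, 0.0129%), the Hox genes Hoxc8, Hoxb9 and Hoxc6 with -2.40, -1.95 and -1.84. Of these Hoxb9 was also lower at 3 h. The genes called higher at 3 h had a median label difference of -0.01 in untreated embryos and 0.05 at 1 h, and those called lower had medians of 0.01 and -0.13.

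The medians of whole lists were followed over the same times. The 61 p53 targets had a median label difference of -0.03 in untreated embryos, 0.29 at 1 h and 2.26 at 3 h. Fas and Tap1 differed little at 1 h, by 0.32 and 0.56, although both were among the 12 highest genes at 3 h. Neural progenitor markers had medians of 0.01 in untreated embryos, -0.15 at 1 h and -1.56 at 3 h. Cardiac markers stood at 0.33, 0.12 and 1.04, and primitive erythroid markers at -0.70, -0.54 and 1.00.

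Whether the label difference at 3 h departs from that of untreated embryos was tested as an interaction, which shares the 3 h libraries with the comparison itself. It was called in 536 genes (3.45%), 403 higher (2.59%) and 133 lower (0.856%), and in 2078 genes with the block (13.4%; 5.99% higher and 7.39% lower). The count of 536 fell without any 1 of the untreated libraries, those with lower Trp53 as well as those with high Trp53. It also fell without any 1 of the 3 h libraries. Of the 536, 531 were also called at 3 h in the same direction. Cdkn1a, Ccng1, Foxo3 and Fbxw7 were all among them, with differences of 6.00, 5.75, 1.91 and 1.48 on the log2 scale (limma adjusted p = 4.66e-05, 0.00209, 0.0166 and 0.019). Of the 61 p53 targets 39 were called higher, and of the 11 neural progenitor markers 5 were lower. Brain regional factors had 11 of 25 lower, and neural tube patterning factors 7 of 23 lower and 1 higher. Immediate early genes had 8 of 21 higher. Clustered Hox genes had 3 of 33 lower and 2 higher. Neuron markers, hedgehog genes and Notch genes had 1 lower each, of 13, 8 and 10. Of 42 genes of G2 and mitosis and 11 endothelial markers 0 were called. None of the 11 cardiac markers passed this test (3 higher at an unadjusted p under 0.05, against 2402 of 15535 genes in either direction). The cardiac difference at 3 h was thus not shown to depart from that in untreated embryos. The same holds for the lists of G2 and mitosis and of endothelium. Against 1 h, the difference was called in 380 genes (2.45%), 316 higher (2.03%) and 64 lower (0.412%), and in 1387 genes with the block (8.93%; 5.1% higher and 3.82% lower). Trp53 itself did not pass either test, with differences of 1.62 against untreated embryos and 0.14 against 1 h (adjusted p = 0.363 and 0.998).

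**Figure D5:**
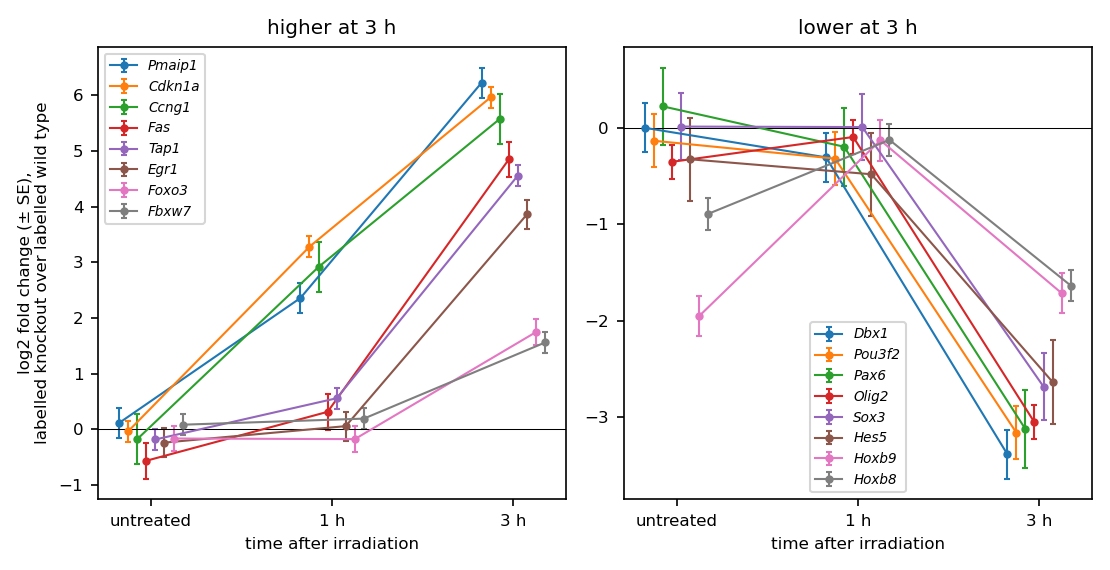
Log2 fold change of the libraries labelled knockout over those labelled wild type (vertical axis, bars are SE of the fit) in untreated embryos and at 1 h and 3 h, for 8 genes higher and 8 genes lower at 3 h. Cdkn1a, Ccng1 and Pmaip1 already stood above 2 at 1 h, the neural genes stood near 0 until 3 h, and Hoxb9 differed in untreated embryos and at 3 h but not at 1 h, where its value was -0.13.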

How the data were processed

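RNA was sequenced after selection of polyadenylated transcripts, with roughly 500 ng of input RNA and 75 bp paired reads, per the labels' protocols. The authors deposited TPM for 53647 gene IDs, 52093 of which (97.1%) matched a symbol in a mouse annotation of an earlier build. The columns sum to between 999999.1 and 1000000.8, so depth is unknown. The build GRCm39 and the tools R 4.3.3, DESeq2 1.42.1, RSEM 1.3.3, HTSeq 0.12.3 and STAR 2.7.3a appear in the submitters' processing notes, without a step for each. For strand and annotation release, settings were not given in the sources used here. Promoter coordinates are those of the RefSeq table and its own build.

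Genes with at least 1 TPM in at least 2 of 12 libraries were tested with limma 3.58.1 in R 4.3.3 on log2(TPM + 1), a scale that shrinks the changes of scarce transcripts. The fit had 1 mean per group over all 12 libraries, a trend of the spread, and 6 residual degrees of freedom (5 with the block). Two-sided p-values of 5 contrasts were adjusted by Benjamini-Hochberg over 15535 genes, with a call at an adjusted p under 0.05. A gene by gene exact permutation test of 2 against 2 libraries cannot go below p = 0.333. No count model was used, because TPM are not counts. The code was tested on simulated data. Python 3.11.15 with matplotlib 3.10.9 made the figures.

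The replicate numbers come from the labels. Same-numbered libraries deviated together from their group means in all 15 pairs of groups (correlations of 0.327 to 0.796, and 0.504 for the 3 h groups). The fit with the number as a block is therefore given beside many of the results. Where it is not given, a call or a count may still differ with it. The 2 libraries of a group had at most 0.264% identical values above 0, and none was counted as a copy.

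Named genes are Trp53, the 4 title genes, the 12 higher and 12 lower genes of largest fold change among called genes with ordinary symbols whose libraries did not overlap, and from each list up to 4 called members of smallest p, or 2 where none was called. Other genes in the text were chosen after their values were seen. The comparison, its members and the lists were chosen with earlier results of these data known, and 4 lists were added after values were seen, of neural tube patterning factors, brain regional factors, all clustered Hox genes and replication histones. Of 51 replication histone genes tested 1 was higher and 1 lower, against 5.25% and 5.07% of all genes. The alternatives are other pseudocounts, filters and scalings, only the groups compared, no trend, the block, a minimum fold of 2 and each library left out. The sequences were matched by gene symbol, and 10873 of 15535 tested genes had an entry. Some results are not reported here.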

Additional observations from a re-analysis of the deposited data

Results flagged for a closer look

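The difference between the labels at 3 h departed from that in untreated embryos in 536 genes and from that at 1 h in 380 genes, by the test of the difference itself (limma, Benjamini-Hochberg adjusted p under 0.05). Among the named genes the label difference at 3 h, minus that in untreated embryos, was largest for Eda2r at 6.12 on the log2 scale, Pmaip1 at 6.11, Cdkn1a at 6.00, Trp53inp1 at 5.88 and Ccng1 at 5.75. It was 5.41 for Fas, 5.20 for Ptprv, 4.99 for Dcxr, 4.97 for Ddit4l, 4.81 for Zfp365, 4.74 for Tap1 and 4.62 for Prrg4. Of the other title genes, Foxo3 had 1.91 and Fbxw7 had 1.48.

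Neural genes were flagged in the other direction. The same difference of differences was -3.38 for Dbx1, -3.34 for Pax6, -3.02 for Pou3f2, -2.70 for Olig2 and -2.69 for Sox3. It was -2.33 for Fgf15, -2.21 for Lfng, -2.08 for Nkx6-1 and -1.81 for Lrrn1, a leucine-rich repeat gene. Groups of 2 libraries are too small for a test of single outlying libraries.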

How the results depend on the processing

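Of the 98 named genes called at 3 h, 64 kept their call in every alternative that tested them. Some scarce genes, such as Cdkn2b and Trp73, were not tested under the stricter filter. Most of the other 34 named genes lost their call when a 3 h library was left out. Xist reversed without the wild type library 2 at 3 h, to -0.40, and was 6.68 without the wild type library 1 there, against 3.14 with all libraries. The 3 h count of 1603 became 610 with only the groups compared, 959 with a fold change of at least 2 besides, and 585 to 1650 with 1 library left out. The 1 h count of 6 became 2 with a pseudocount of 0.1, 0 with only the groups compared, and 1 to 5 with 1 library left out. The untreated count of 3 became 1 without the trend and 0 with a pseudocount of 5, with only the groups compared or without both 1 h groups, and 0 to 2 with 1 library left out. The count against untreated embryos, 536, ranged from 224 to 484 with 1 library left out. The count against 1 h, 380, became 231 with a pseudocount of 0.1, 169 with only the groups compared, and 143 to 285 with 1 library left out. Both 1 h libraries numbered 2 stood apart on the first principal component (66.4 and 67.9, against -46.1 to 11.8). Without them, an alternative chosen after seeing the data, these counts were 1 at 1 h, 0 in untreated embryos and 116 against 1 h.

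With the replicate number as a block, the counts were 4371 at 3 h, 12 at 1 h, 2078 against untreated embryos and 1387 against 1 h. The cause of these changes was not tested, except that each left-out library or group leaves fewer libraries in the fit. TPM keep no depth, so what depth limits cannot be given.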
